A study of Homo sapiens with 18 samples.

Results

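The Hodgkin lymphoma line L428 was exposed together to 5-aza-2'-deoxycytidine (5-aza-dC) and trichostatin A (TSA), and gene expression was read on whole-transcript Affymetrix arrays. The samples were chosen by title: the 3 arrays labelled L428+MAT and the 3 labelled L428+M, which are 6 of the 18 arrays of the series. All 18417 genes with a probe set of a single symbol were tested, so the tested set was not selected by response. Many of the genes named below were chosen by their response, and the lists were chosen with earlier results of these data known. The series as a whole asks whether renewed PAX5, the master regulator of B-cell commitment, brings B-cell expression back to a Hodgkin line. Its other arrays hold the PAX5-inducible derivative L428-PAX5 with and without the same drugs, all under mifepristone, and the untreated Burkitt lymphoma lines Raji and Namalwa, 3 arrays each.

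L428 is an established classical Hodgkin lymphoma line, and the cells of this tumour derive from B cells but have lost most B-cell expression. Both L428 groups carried the inducer mifepristone, although L428 has no inducible PAX5. L428+M received 0.25 nM mifepristone with a treatment time of 5 days. L428+MAT received mifepristone for 2 days and then 3 µM 5-aza-dC for 3 days, with 640 nM TSA over the last 24 hours. The drugs were always given together, so their separate effects cannot be told apart, and the labels name no solvent control. L428 is a single line, and the labels do not say whether the replicates were separate cultures, so the p-values rest on a spread between arrays that may be technical. In such bulk RNA, fewer cells of a kind and less RNA per cell cannot be told apart.

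The arrays carried the expression the labels state. Of 10 genes that define Hodgkin cells, 9 lay above the median of all values (log2 signal 7.18) in L428+M and 10 did so in L428+MAT. Of 4 genes that define B cells, 1 (PAX5, mean 7.49) lay above it in L428+M and none in L428+MAT, and the highest mean in L428+MAT was 7.17. PAX5 ranged from 6.70 to 8.64 on the 6 arrays, below its means of 10.89 in Raji and 11.08 in Namalwa. Of 13 markers that define T, NK, myeloid, epithelial or stromal cells, 2 lay above the median in L428+M and 3 in L428+MAT, the additional one being keratin 8 (KRT8). Replicate arrays of the L428 groups correlated across genes with r between 0.981 and 0.992.

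5-aza-dC is a cytidine analogue that enters replicating DNA and traps the DNA methyltransferases there, so that cytosine methylation is lost as cells divide. TSA blocks histone deacetylases and raises histone acetylation. Germline genes are held silent in most body cells by methylation of CpG-containing promoters, and interferon-stimulated genes are switched on by STAT and IRF factors that bind a response element of paired GAAA units.

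The promoters of 6 genes that the results turn on are shown for their CpG dinucleotides and their interferon-response letters, and as chosen examples they do not stand for their gene classes. The letters are the 250 bases before an annotated transcription start, taken from RefSeq on GRCh38.p14 and written 5' to 3' on the strand of the gene. In the first set, capitals mark CpG dinucleotides, the sites of DNA methylation, in 3 germline genes: the cancer-testis gene SSX1 at chrX:48255142-48255391 (plus strand), the meiosis gene TEX11 at chrX:70908712-70908961 (minus strand) and DAZL, which binds RNA in germ cells, at chr3:16605424-16605673 (minus strand). These windows hold 3, 9 and 28 CpG dinucleotides.
SSX1: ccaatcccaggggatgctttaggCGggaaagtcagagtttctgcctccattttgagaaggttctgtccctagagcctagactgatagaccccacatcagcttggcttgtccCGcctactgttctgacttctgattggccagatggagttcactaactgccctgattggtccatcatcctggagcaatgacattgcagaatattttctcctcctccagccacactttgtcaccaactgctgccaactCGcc
TEX11: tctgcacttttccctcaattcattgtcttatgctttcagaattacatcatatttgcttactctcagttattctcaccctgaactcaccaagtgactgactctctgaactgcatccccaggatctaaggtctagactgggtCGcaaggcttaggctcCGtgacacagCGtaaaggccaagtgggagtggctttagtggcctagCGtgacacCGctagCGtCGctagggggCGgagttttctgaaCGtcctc
DAZL: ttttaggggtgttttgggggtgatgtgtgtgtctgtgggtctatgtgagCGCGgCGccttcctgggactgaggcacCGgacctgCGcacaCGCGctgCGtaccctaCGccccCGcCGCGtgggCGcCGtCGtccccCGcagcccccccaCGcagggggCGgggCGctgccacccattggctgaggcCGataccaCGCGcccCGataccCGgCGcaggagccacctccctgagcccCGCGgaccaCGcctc
In the second set, capitals mark matches, on either strand, to GAAA, any 2 bases and GAAA, the core of the interferon-stimulated response element, in the antiviral genes OAS3 at chr12:112938224-112938473 (plus strand), IFI44L at chr1:78620198-78620447 (plus strand) and IFI27 at chr14:94110486-94110735 (plus strand). Each of these windows holds 2 matches, and they hold 15, 0 and 3 CpG dinucleotides.
OAS3: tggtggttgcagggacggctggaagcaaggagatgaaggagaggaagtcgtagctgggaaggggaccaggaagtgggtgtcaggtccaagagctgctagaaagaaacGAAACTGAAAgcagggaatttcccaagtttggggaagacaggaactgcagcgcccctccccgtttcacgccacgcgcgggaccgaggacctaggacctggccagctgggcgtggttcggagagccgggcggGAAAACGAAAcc
IFI44L: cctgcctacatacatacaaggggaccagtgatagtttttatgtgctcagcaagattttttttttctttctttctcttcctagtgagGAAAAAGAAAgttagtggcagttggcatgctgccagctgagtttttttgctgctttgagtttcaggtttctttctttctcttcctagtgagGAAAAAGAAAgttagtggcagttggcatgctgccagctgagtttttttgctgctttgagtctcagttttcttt
IFI27: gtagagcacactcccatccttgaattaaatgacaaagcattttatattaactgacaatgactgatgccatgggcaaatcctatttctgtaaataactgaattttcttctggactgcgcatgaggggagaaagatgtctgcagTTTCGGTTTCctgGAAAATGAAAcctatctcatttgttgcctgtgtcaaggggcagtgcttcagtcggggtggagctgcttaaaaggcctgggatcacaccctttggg
In OAS3 the match nearer to the start spans bases 12 to 3 before it. Over windows of 300 bases, which add the first 50 bases after each start, this core was present in 28 of 42 windows of interferon-stimulated genes that rose (66.7%), from 31 of 37 such genes. It was present in 9 of 16 windows of those that did not rise (56.2%), from 12 of 18 genes, and in 3.11% of all 20107 windows, which cover 77.3% of the genes tested. Meiosis genes held TTCCCGC on either strand in 42.5% of 40 windows, against 8.37% of all windows, and the share was 40% for those that rose and 44% for those that did not. The palindrome CACGTG was present in 41.7% of 12 windows of germ-cell RNA genes that rose, which is 5 windows from 4 genes. It was present in 12.5% of 32 windows of those that did not rise and in 8.32% of all windows. Cancer-testis genes had it in 14.3% of windows of those that rose and 18.8% of those that did not. For meiosis genes these shares were 13.3% and 12%. The searches were separate, so matches may overlap, and a match describes letters, not a bound site.

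More genes rose than fell with the drugs in L428. Of 18417 genes, 775 rose (4.21%) and 117 fell (0.635%) at an adjusted p below 0.05, so that 86.9% of the genes that passed were higher with the drugs. The rises were also larger. Of them, 355 reached 2-fold and 19 reached 8-fold, whereas 13 falls reached 2-fold and none reached 4-fold. The treated and control values did not overlap for 770 of the 775 rises and 115 of the 117 falls, against 19.9% of all genes. Passing was judged on these same values, so the separation follows closely from it. Here and for the passing genes below, it adds no support of its own. The median change over all genes was -0.04 on the log2 scale, and every change below is on that scale, with its standard error and 3 arrays a group. A fit blocked on the replicate number gave 1156 rises and 436 falls, so that 72.6% of the genes that passed were higher, and all 775 rises were among the 1156. Weighting the arrays gave 1569 rises and 982 falls. The falls numbered 43 without L428+M replicate 1, 59 without L428+M replicate 2, 61 without L428+MAT replicate 2 and 45 without L428+MAT replicate 3.

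**Figure D1:**
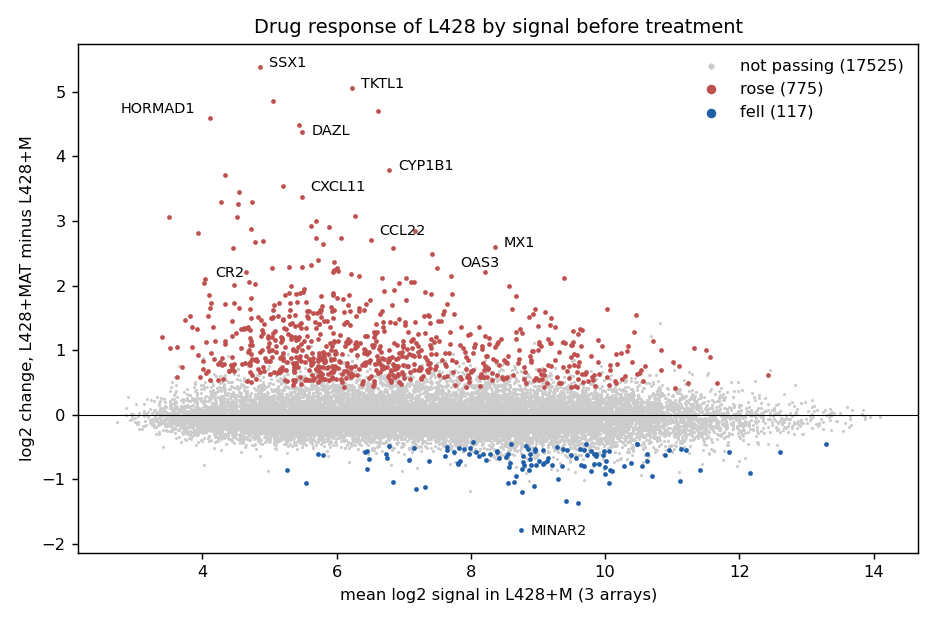
Each point is a gene, placed by its mean log2 signal in L428+M (horizontal) and its log2 change with the drugs (vertical, L428+MAT minus L428+M, 3 arrays a group). The 775 genes that rose (red) reach a change of 5.38, most of the largest starting from low signal, and the 117 that fell (blue) reach -1.78.

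Genes with low signal before treatment made up most of the rises. In L428+M, 526 of the 775 (67.9%) lay below the median of all values, against 49.8% of all genes. Of the 775, 209 (27%) crossed it with the drugs, against 2.32% of all genes. Among rises of at least 2-fold the share below the median was 74.9%. The genes that fell were bright beforehand, with 14 of 117 below the median. The L428+M values also enter the change, and genes near the floor can rise but hardly fall. These shares are therefore partly built in and were not tested. The rises were in part genes that the Burkitt lines do not express strongly either: 60.9% lay below the median in both Raji and Namalwa, against 47.6% of all genes.

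The 36 gene lists differed widely in how many members rose, as the plot of list shares shows. The interferon-stimulated list led with 67.3%, followed by the meiosis list with 37.8% and the cancer-testis list with 34.9%. Together the lists held 157 of the 775 genes that rose (20.3%), so most rises lay outside any list. Among the 30 largest rises, 11 were in a germ-cell list and none in the interferon list.

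**Figure D2:**
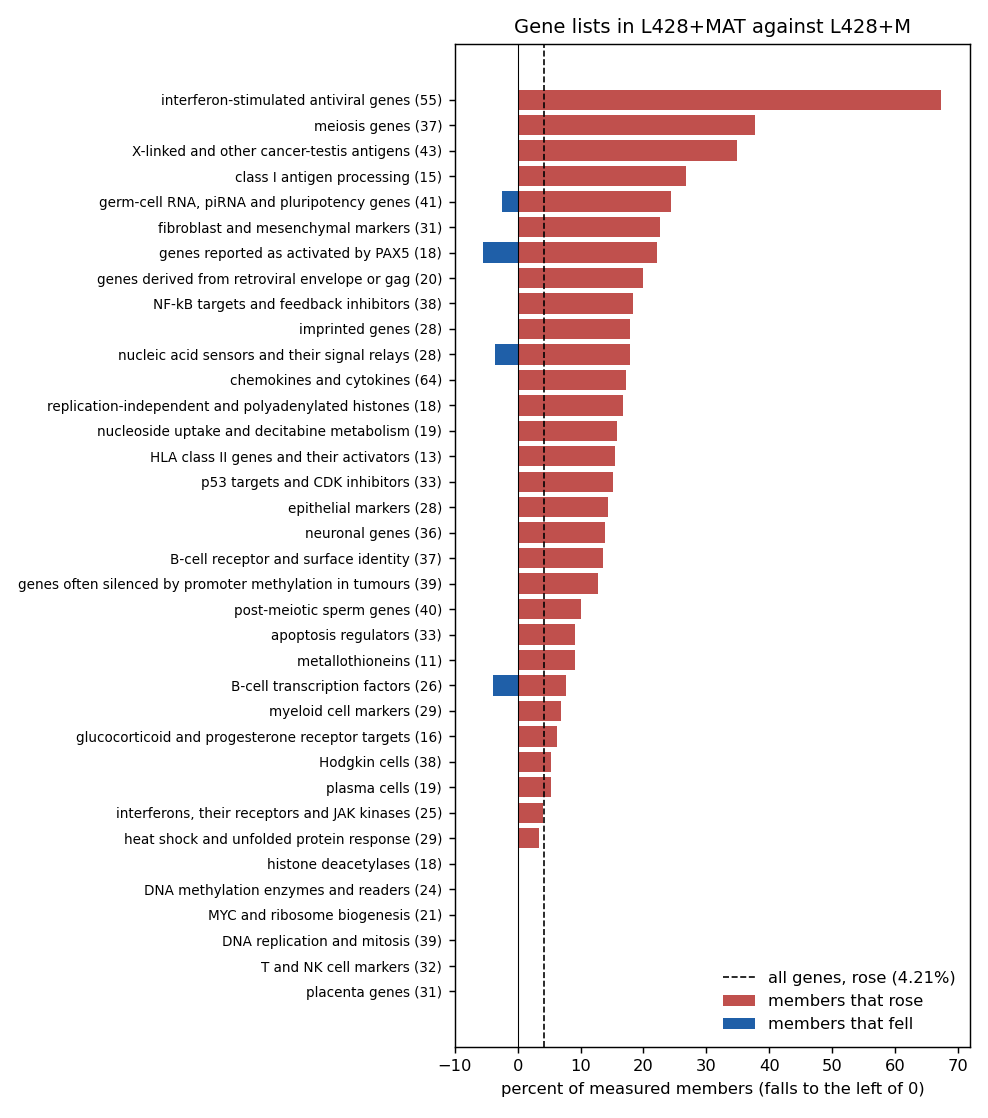
Bars give the percent of measured members of each list (number in brackets) that rose (red) or fell (blue, to the left of 0) in L428+MAT against L428+M, and the dashed line marks 4.21%, the share of all genes that rose. The interferon-stimulated list stands at 67.3%, the meiosis and cancer-testis lists at 37.8% and 34.9%, and 6 lists have no member that passed.

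Cancer-testis antigens, proteins normally restricted to testis that tumours can present to T cells, rose in 15 of 43 cases. This was 34.9% of the measured members, none fell and 28 did not pass, with a median change of 0.46 over all 43. The mean of the 43 was 5.67, 5.69 and 5.86 on the L428+M arrays and 6.76, 6.57 and 6.75 on the L428+MAT arrays. SSX1, a transcriptional repressor known from the fusion protein of synovial sarcoma, had a log2 signal of 5.06, 4.41 and 5.10 without drugs and 10.33, 10.13 and 10.25 with them. Treated arrays lay far above every control array, a 41.7-fold rise (5.38 ± 0.18, adjusted p = 9.48e-13), and its level without drugs was near that in Raji (5.53) and Namalwa (4.91). TKTL1, a transketolase-like gene, went from 6.01, 6.41 and 6.29 to 11.54, 11.11 and 11.24, a 33.4-fold rise (5.06 ± 0.22, adjusted p = 7.24e-11). SSX3 went from 4.93, 5.16 and 5.06 to 9.68, 9.86 and 10.17 (4.85 ± 0.22, adjusted p = 7.24e-11). BRDT, a bromodomain protein that reads acetylated histones in the testis, went from 4.87, 4.53 and 4.81 to 8.26, 8.05 and 7.78 (3.29 ± 0.19, adjusted p = 3.3e-09).

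All 6 measured SSX genes rose by at least 2-fold, with a median change of 2.68, among them SSX5 (3.06 ± 0.24) and SSX7 (2.29 ± 0.25). SSX genes are near-identical in sequence and their probe sets may share signal, so these are not 6 independent observations. In the MAGE family 2 of 23 measured members rose, MAGEA4 (2.01 ± 0.26) and MAGEC1 (1.06 ± 0.19), with a median of 0.01, and 6 rose with the replicate block. MAGEA1 (0.56 ± 0.17, adjusted p = 0.074) and PRAME (0.59 ± 0.25, adjusted p = 0.27) did not pass, and both were chosen here after their values were seen. MAGEA1 passed with the replicate block (adjusted p = 0.0403). CTCFL, a testis paralogue of the insulator protein CTCF, was already at 8.23, 8.51 and 8.58 without drugs and at 8.48, 8.19 and 8.80 with them (0.05 ± 0.33). The olfactory receptors, a large family silent in most tissues, had 2 of 360 members higher and 1 lower, below the shares of all genes, with OR2B6 at 2.05 ± 0.28. With replicate 1 or 2 of L428+M or replicate 3 of L428+MAT removed, 1 of them was higher, and the replicate block gave 5 lower.

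Meiosis genes were the second germline list. Of 37 measured members, 14 rose (37.8%), none fell and 23 did not pass, with a median change of 0.42. With dim genes left out of the test, 6 rose. The list mean was 5.14, 5.07 and 5.25 on the L428+M arrays and 6.0, 5.83 and 5.93 on the L428+MAT arrays. HORMAD1, which binds the unsynapsed chromosome axis, went from 4.22, 4.02 and 4.12 to 9.20, 8.29 and 8.64, a 24.1-fold rise (4.59 ± 0.35, adjusted p = 9.55e-08). TEX11, a crossover protein encoded on the X chromosome, went from 4.13, 4.20 and 4.51 to 8.21, 7.41 and 7.12, a 9.86-fold rise (3.30 ± 0.25, adjusted p = 7.24e-08). Control arrays of both genes sat near the Burkitt levels, with means of 4.27 and 4.17 in Raji. The testis heat shock protein HSPA2 rose by 2.48 ± 0.39, the germ-cell cyclin CCNA1 by 2.23 ± 0.22 and TEX14, a protein of germ-cell bridges, by 1.15 ± 0.17. SYCP3, a component of the synaptonemal complex named after its values were seen, went from 3.71, 3.93 and 3.91 to 5.76, 4.98 and 4.91 (1.36 ± 0.24, adjusted p = 0.00128). SPO11, the enzyme that makes meiotic DNA breaks and was likewise named after its values were seen, did not pass (-0.01 ± 0.20).

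Germ-cell RNA regulators, piRNA pathway genes and pluripotency genes formed the third germline list. Of 41 measured members, 10 rose (24.4%), 1 fell and 30 did not pass, and the median of 0.08 lay near that of all genes. With dim genes left out of the test, 5 rose. DAZL, an RNA-binding protein of germ cells, went from 5.29, 5.50 and 5.67 to 10.79, 9.63 and 9.19, a 20.8-fold rise (4.38 ± 0.28, adjusted p = 1.15e-08). MAEL, which acts in transposon silencing, went from 4.06, 4.50 and 4.46 to 8.71, 7.61 and 7.83, a 13.1-fold rise (3.71 ± 0.24, adjusted p = 1.14e-08). For both genes L428+MAT replicate 1 was the highest array, and all treated arrays lay above all controls. RFPL4A (2.74 ± 0.32) and the piRNA factor TDRD12 (2.21 ± 0.24) followed. The germ-cell helicase DDX4 (0.35 ± 0.20) and PIWIL1, a core piRNA-binding protein (0.33 ± 0.16), did not pass and were named after their values were seen. NANOS2, a translational repressor of male germ cells, was the 1 member that fell (-0.48 ± 0.13, adjusted p = 0.0401). It did not pass once any single L428+M array or L428+MAT replicate 2 or 3 was removed, where the change was between -0.50 and -0.44. The cancer-testis, meiosis and germ-cell RNA lists together had 39 of 121 members higher and 1 lower.

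**Figure D3:**
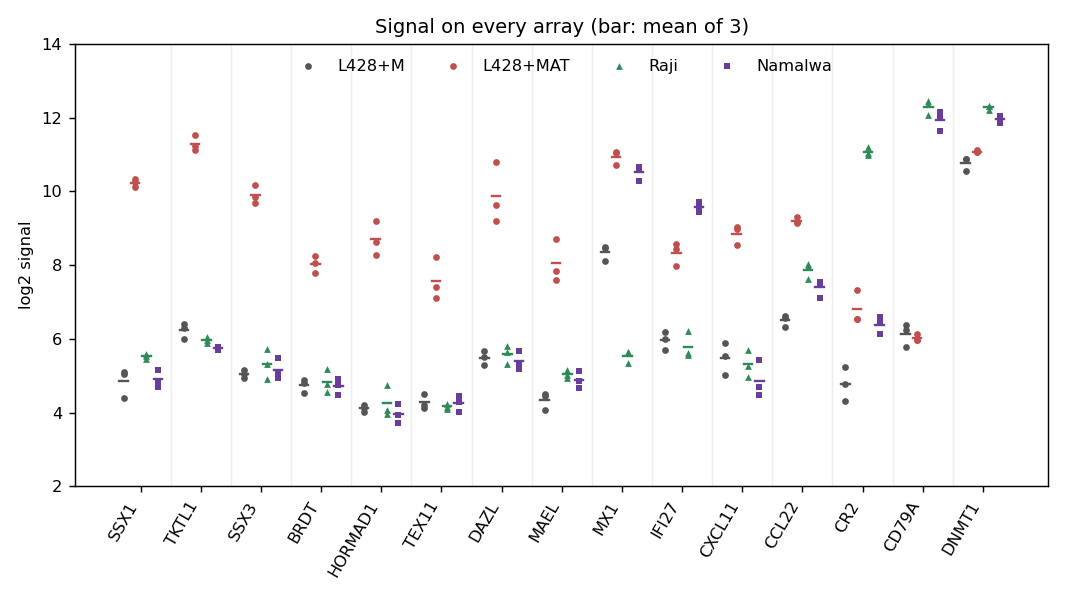
Points are the log2 signal of 15 genes on each array of L428+M (grey), L428+MAT (red), Raji (green triangles) and Namalwa (purple squares), and short bars are means of 3 arrays; levels are comparable within a gene, not between genes. For the 8 germline genes on the left, L428+M lies near the Burkitt lines and L428+MAT above all of them, and for CD79A and DNMT1 on the right the L428 groups lie together or close.

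Sperm, placenta, retroviral-derived and imprinted genes were described as 4 further lists, and whether their shares differ from those of the germline lists was not tested. Post-meiotic sperm genes had 4 of 40 members higher (10%) and none lower, among them SPAG6 of the sperm flagellum (1.70 ± 0.15) and the acrosomal protease ACR (1.38 ± 0.19). Removing L428+M replicate 1 or L428+MAT replicate 1 or 3 left 2 of them. Placenta genes, also hypomethylated in their own tissue, had 0 of 31 members that passed limma, a median change of -0.08 and 2 members with an unadjusted p below 0.05. Genes derived from retroviral envelope or gag sequences had 4 of 20 higher (20%), with the endogenous retroviral gene ERVH48-1 at 1.69 ± 0.17 and PNMA5 at 1.14 ± 0.21, and 2 were higher once L428+M replicate 1 or L428+MAT replicate 3 was removed. The arrays' probe sets for transposon transcripts themselves were not analysed here. Imprinted genes, of which 1 parental copy is methylated, had 5 of 28 higher and none lower. MEST rose by 0.91 ± 0.18 and INPP5F by 0.80 ± 0.14. NNAT rose by 1.60 ± 0.37, which did not pass once L428+M replicate 1 (1.55), L428+M replicate 2 (1.55) or L428+MAT replicate 1 (1.28) was removed. The imprinted count was 2 without L428+M replicate 1 and 3 without any 1 of the L428+MAT replicates.

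Interferon-stimulated antiviral genes were the list with the highest share of rises. Of 55 measured members, 37 rose (67.3%), none fell and 18 did not pass, with a median change of 1.08, and 29 rose at least 2-fold. Values did not overlap between the groups for 47 of the 55, against 19.9% of all genes. The list mean was 8.56, 8.49 and 8.44 on the L428+M arrays and 9.60, 9.57 and 9.52 on the L428+MAT arrays, with every treated array above every control array. These genes were not silent to begin with: their median level was 8.57 in L428+M, above 7.97 in Namalwa and 6.57 in Raji. Leaving out 1 array at a time gave 29 to 33 rises.

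Among the antiviral effectors, MX1, a GTPase that traps viral nucleocapsids, went from 8.46, 8.50 and 8.11 to 11.04, 11.07 and 10.72, a 6.03-fold rise (2.59 ± 0.21, adjusted p = 1.61e-07). IFI27 went from 5.71, 6.0 and 6.18 to 8.57, 8.44 and 7.98 (2.37 ± 0.20, adjusted p = 3.55e-07). TRIM22, an antiviral ubiquitin ligase, went from 5.62, 5.13 and 5.71 to 7.59, 7.77 and 7.95 (2.28 ± 0.17, adjusted p = 7.24e-08). The 3 oligoadenylate synthetases OAS1, OAS2 and OAS3, which activate RNase L on double-stranded RNA, rose by 2.00 ± 0.16, 1.51 ± 0.20 and 2.14 ± 0.20. OAS1, OAS3 and IFIT1 (1.53 ± 0.15), a sensor of uncapped viral RNA, were named after their values were seen. GBP2, a guanylate-binding protein typical of interferon gamma responses, went from 6.57, 6.97 and 6.99 to 8.72, 9.32 and 10.25 (2.58 ± 0.31, adjusted p = 2.72e-05). PARP9 rose by 1.87 ± 0.28. IFI44L rose by 1.29 ± 0.34 (adjusted p = 0.0354) from the already high values of 10.18, 10.41 and 10.70. It did not pass once L428+M replicate 1, L428+M replicate 2 or any single L428+MAT array was removed, where the change was between 1.16 and 1.41. Classic members that did not pass were ISG15 (0.44 ± 0.26) and MX2 (0.30 ± 0.16), both named after their values were seen, and IRF7 (0.83 ± 0.24, adjusted p = 0.056, and 0.00946 with the replicate block).

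Upstream of these effectors stand sensors, signal relays and the factors they activate. Among sensors of foreign nucleic acid and their signal relays, 5 of 28 rose and 1 fell, and 8 rose with the replicate block. RIGI, the sensor of uncapped RNA, went from 7.62, 7.62 and 7.91 to 9.75, 9.33 and 9.66 (1.86 ± 0.19, adjusted p = 3.2e-06). The RNA-activated kinase EIF2AK2 (0.75 ± 0.16) and SAMHD1, which hydrolyses deoxynucleotides including the triphosphate of 5-aza-dC (0.99 ± 0.14), also rose. IFIH1, the sensor of long double-stranded RNA (0.62 ± 0.23, adjusted p = 0.163), and the endosomal receptor TLR3 (0.28 ± 0.22) did not pass. The 1 fall was DDX41, a helicase and DNA sensor, from 11.56, 11.66 and 11.01 to 10.60, 10.76 and 10.30 (-0.86 ± 0.18, adjusted p = 0.00619). Values for the 2 groups overlapped for none of the sensors that are given as risen or fallen here.

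Among the interferons named here, IFNB1 and IFNG had low mean signal. Of 25 interferons, receptors and JAK kinases, 1 rose, IFNG, and none fell, while 2 rose with L428+M replicate 3 removed and 2 rose and 1 fell with the replicate block. IFNG went from 5.22, 4.99 and 5.93 to 6.28, 6.20 and 7.29 (1.20 ± 0.32, adjusted p = 0.0354), and it did not pass once L428+M replicate 1 (1.12), L428+M replicate 2 (1.01) or L428+MAT replicate 3 (0.85) was removed. IFNB1, the first type I interferon made by most infected cells, was at 4.01, 3.98 and 4.37 without drugs and 3.89, 3.88 and 4.39 with them (-0.07 ± 0.17). IFNL1 did not pass (0.53 ± 0.16, adjusted p = 0.0679, and 0.0421 with the replicate block). IFNB1 and IFNG lay below the median of all values in both groups.

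Class I antigen processing, an interferon target that loads peptides for T cells, had 4 of 15 members higher and none lower. NLRC5, the activator of class I genes, rose by 0.73 ± 0.13 and the immunoproteasome subunit PSMB9 by 0.81 ± 0.16. Removing replicate 2 or 3 of L428+M or replicate 1 or 2 of L428+MAT left 2 of them, and so did subtracting array medians. Class II genes had 2 of 13 higher, a count that dropped to 0 when L428+M replicate 2, L428+MAT replicate 2 or L428+MAT replicate 3 was removed and to 1 for L428+M replicate 3 or L428+MAT replicate 1.

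Secreted signals rose in part. Of 64 chemokines and cytokines, 11 rose (17.2%) and none fell, with a median of 0.04. The largest rises were in chemokines that attract activated T cells through CXCR3 and regulatory or type 2 T cells through CCR4. CXCL11, a CXCR3 ligand, went from 5.53, 5.02 and 5.89 to 8.99, 8.54 and 9.04, a 10.4-fold rise (3.38 ± 0.25, adjusted p = 7.24e-08). CXCL9, another CXCR3 ligand, went from 4.31, 4.46 and 4.63 to 6.88, 6.30 and 7.95 (2.58 ± 0.28, adjusted p = 7.09e-06). CCL22, a CCR4 ligand that Hodgkin cells secrete, went from 6.56, 6.63 and 6.33 to 9.18, 9.30 and 9.14, a 6.49-fold rise (2.70 ± 0.17, adjusted p = 7.87e-09). The treated values of these 3 chemokines lay above every control value. CCL17, the other CCR4 ligand, stayed between 10.35 and 10.81 on all 6 arrays (0.03 ± 0.17). CCL20 rose by 1.63 ± 0.22.

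The Hodgkin phenotype itself showed few calls. Of 38 Hodgkin-cell genes, 2 rose, CCL22 and the costimulatory receptor TNFRSF9 (1.07 ± 0.18), and none fell, with 5 higher and 1 lower under the replicate block. TNFRSF8 (CD30), the diagnostic receptor of the tumour, was at 10.22, 10.11 and 9.32 without drugs and 10.30, 10.06 and 9.70 with them (0.14 ± 0.21). Targets of NF-kB, the factor on which Hodgkin cells depend, had 7 of 38 higher (18.4%) and none lower, with a median of 0.27. Removing L428+MAT replicate 1 left 4 of them, removing L428+MAT replicate 2 left 2, and subtracting array medians left 4.

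Among B-cell genes, a few surface molecules rose. Of 37 receptor and surface identity genes, 5 rose (13.5%), none fell and 32 did not pass, with a median of 0.03. CR2, the complement receptor CD21, went from 5.25, 4.79 and 4.30 to 7.32, 6.53 and 6.55 (2.02 ± 0.22, adjusted p = 9.66e-06). It reached a mean of 6.80, above 6.39 in Namalwa and below 11.08 in Raji. CD38, an ectoenzyme of germinal-centre and plasma cells, went from 6.40, 6.19 and 5.96 to 7.89, 8.15 and 8.07 (1.86 ± 0.14, adjusted p = 6.47e-08), with Raji at 12.13 and Namalwa at 12.28. FCER2, the low-affinity IgE receptor CD23, went from 7.53, 8.03 and 7.23 to 9.18, 9.41 and 9.01 (1.60 ± 0.18, adjusted p = 1.36e-05), above both Burkitt means of 6.38 and 7.69. CD52 rose by 1.23 ± 0.26. The costimulatory receptor CD40, named after its values were seen, rose by 0.78 ± 0.19 (adjusted p = 0.0204), which did not pass once replicate 2 (0.81) or 3 (0.62) of L428+M or replicate 1 (0.72) or 2 (0.72) of L428+MAT was removed. Treated values exceeded all controls for CR2, CD38, FCER2 and CD52.

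The chains and adaptors of the B-cell receptor stayed low. CD79A was at 6.37, 6.24 and 5.78 without drugs and 5.96, 5.96 and 6.13 with them (-0.11 ± 0.16), against 12.30 in Raji and 11.93 in Namalwa. CD79B (0.02 ± 0.15), MS4A1 or CD20 (0.23 ± 0.25), CD22 (0.33 ± 0.16), the adaptor BLNK (-0.12 ± 0.18), the coactivator POU2AF1 (0.10 ± 0.17) and PAX5 (-0.33 ± 0.30) did not pass either. B-cell transcription factors had 2 of 26 higher and 1 lower. The fall was that of BCL11A, a repressor needed for early B cells, from 8.49, 8.69 and 8.40 to 7.72, 8.01 and 7.88 (-0.66 ± 0.13, adjusted p = 0.0035). No rise remained once L428+MAT replicate 1 or L428+M replicate 2 or 3 was removed or array medians were subtracted, 1 remained without L428+MAT replicate 2, and the replicate block gave 4. IRF4, already at 12.03, 12.21 and 11.85, changed by -0.03 ± 0.16. Among 18 known PAX5-activated genes 4 rose and 1 fell, and the rises numbered 2 once L428+MAT replicate 1 or L428+M replicate 2 or 3 was removed.

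Genes of other lineages rose in part, with shares between 0% and 22.6% of a list beside 4.21% of all genes. Whether these shares differ from that of all genes was not tested. Mesenchymal markers had 7 of 31 higher (22.6%), with the homeobox gene PRRX1 at 1.61 ± 0.18, the surface protein THY1 at 1.50 ± 0.22 and fibronectin (FN1) at 1.28 ± 0.22, and 4 were higher without L428+MAT replicate 1. The mean of the 31 was between 6.64 and 6.71 on the L428+M arrays and between 6.93 and 7.06 on the L428+MAT arrays, and 22 and then 18 of them lay below the median of all values. Epithelial markers had 4 of 28 higher (14.3%), among them KRT8 (1.56 ± 0.22) and E-cadherin (CDH1, 1.38 ± 0.18), with 21 below the median before and 19 after. Of the epithelial markers, 2 were higher once L428+M replicate 1 or L428+MAT replicate 2 was removed. Neuronal genes had 5 of 36 higher (13.9%). ATP1B2, a sodium pump subunit of glia and neurons, went from 6.47, 6.99 and 6.39 to 11.86, 11.42 and 10.70, a 26.1-fold rise (4.71 ± 0.28, adjusted p = 3.3e-09). The deubiquitinase UCHL1 rose by 1.62 ± 0.31 to a mean below Raji (11.28), MAP2 by 0.89 ± 0.14 and ELAVL4 by 0.68 ± 0.14. Myeloid markers had 2 of 29 higher (6.9%), with AIF1 at 1.07 ± 0.20. The myeloid count was 1 without L428+M replicate 1, L428+MAT replicate 2 or L428+MAT replicate 3 and 4 with the replicate block. T and NK cell markers had 0 of 32 that passed limma and 3 with an unadjusted p below 0.05, with array means between 5.92 and 6.06 before and between 5.94 and 6.17 after and 1 higher with the replicate block. Whether these lineage genes rose in every cell or in few was not tested.

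Several large rises belonged to none of the lists described so far. GCNA, a germ-cell nuclear protein, went from 5.22, 5.39 and 5.70 to 10.53, 9.75 and 9.50, a 22.5-fold rise (4.49 ± 0.24, adjusted p = 7.56e-10). CYP1B1, a cytochrome that hydroxylates oestradiol, went from 6.93, 6.69 and 6.71 to 10.89, 10.61 and 10.20 (3.79 ± 0.36, adjusted p = 1.31e-06). TENM1, a teneurin of neurons encoded on the X chromosome, went from 5.21, 5.24 and 5.17 to 8.38, 9.04 and 8.84 (3.54 ± 0.20, adjusted p = 1.69e-09). These 3 genes were named among the largest rises, for which no overlap between the groups was a condition of selection. LRRC49 (3.44 ± 0.15), the phosphate transporter SLC34A2 (3.08 ± 0.27), of the solute carrier family, and the keratinocyte caspase CASP14 (3.00 ± 0.23), of the apoptosis list, also rose at least 8-fold.

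Zinc finger genes as a family did not stand out, with 22 of 480 members higher (4.58%) and 1 lower beside 4.21% and 0.635% of all genes. Those that led were genes that both Burkitt lines express: ZNF737 went from 4.73, 4.52 and 4.93 to 7.95, 7.97 and 6.87 (2.87 ± 0.24), against means of 9.33 in Raji and 9.42 in Namalwa. ZNF506 (2.21 ± 0.14), ZNF486 (1.83 ± 0.26) and ZNF136 (1.63 ± 0.19) followed, and they too were brighter in the Burkitt lines than in L428+MAT. The family count was 12 without L428+M replicate 1 and 13 without L428+MAT replicate 1. Clustered protocadherins, neuronal adhesion genes, had 6 of 31 higher (19.4%), with PCDHB5 at 1.57 ± 0.24 and PCDHB3 at 1.78 ± 0.38. PCDHB3 did not pass once L428+MAT replicate 1 was removed (1.58), and removing L428+M replicate 2 or L428+MAT replicate 1, or subtracting array medians, left 3 of the family. HOX genes had 2 of 27 higher, HOXC10 (0.54 ± 0.15) and HOXD10 (1.17 ± 0.20), and 1 without any of the L428+M replicates or without L428+MAT replicate 1 or 2. TRIM genes had 9 of 54 higher (16.7%), which include the antiviral TRIM22 and also TRIM48 (1.81 ± 0.23).

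Of 39 genes often silenced by promoter methylation in tumours, 34 did not pass. The other 5 rose (12.8%, against 4.21% of all genes) and none fell. Among the 5, the matrix protein THBS1 went from 6.60, 6.11 and 6.31 to 8.83, 8.37 and 8.24 (2.14 ± 0.23, adjusted p = 5.61e-06). The count was 3 without L428+MAT replicate 1, and the list median was 0.06. Replication-independent and polyadenylated histones, which respond to deacetylase inhibitors in many cells, had 3 of 18 higher. H4C8, although one of the clustered replication-dependent genes, went from 9.35, 9.40 and 9.43 to 11.56, 11.45 and 11.53 (2.12 ± 0.16, adjusted p = 1.11e-07), H2BC21 rose by 1.15 ± 0.23 and H2BC12 by 1.01 ± 0.21. Treated and control values of all 3 were apart, but histone genes are near-identical in sequence and whether their probe sets share signal was not tested.

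Growth arrest genes moved in part. Of 33 p53 targets and CDK inhibitors, 5 rose and none fell. The cell-cycle inhibitor CDKN1A went from 7.55, 7.62 and 7.42 to 8.87, 9.02 and 8.12 (1.14 ± 0.25, adjusted p = 0.00867), which did not pass once L428+MAT replicate 2 was removed (0.97). PLK2 (1.53 ± 0.29), TIGAR (1.24 ± 0.19) and the nuclease AEN (0.75 ± 0.16) rose as well, and the list count was 3 without L428+MAT replicate 2. Apoptosis regulators had 3 of 33 higher, with the BH3-only killer BCL2L11 (BIM) at 1.28 ± 0.16, and 5 with the replicate block. Of the proliferation genes, 0 of 39 in DNA replication and mitosis, 0 of 21 in MYC and ribosome biogenesis and 0 of 73 cytosolic ribosomal proteins passed limma. Their medians were 0.12, -0.07 and -0.11. Among all genes 4.21% rose and 0.635% fell, and whether these counts differ from those shares was not tested. At an unadjusted p below 0.05 the counts were 2, 1 and 1, a replicate block gave 1 lower ribosomal protein, and 1 replication gene was higher without L428+M replicate 1.

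The remaining lists and families had few calls. Plasma cell genes had 1 of 19 higher (CD38), metallothioneins 1 of 11, heat shock and unfolded protein genes 1 of 29, and glucocorticoid and progesterone receptor targets, whose receptors mifepristone binds, 1 of 16. Genes of nucleoside uptake and decitabine metabolism had 3 of 19 higher, SAMHD1 among them, and 1 of them once L428+M replicate 1 or 2, or replicate 2 or 3 of L428+MAT, was removed. The plasma cell count was 2 without L428+M replicate 1, the heat shock count 0 once L428+M replicate 1 or 2 was removed, and the receptor target count 0 without L428+MAT replicate 1. Solute carriers had 15 of 359 higher (4.18%), 9 without L428+MAT replicate 1 and 24 with the replicate block, and proteasome subunits 1 of 36. The block gave 2 plasma cell genes, 3 metallothioneins, 3 heat shock genes and 2 receptor targets. In these groups the shares lay near the 4.21% of all genes or rested on 1 to 3 genes.

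The RNA of the drugs' target genes did not change by a passing amount in the main fit. The drugs act on the proteins, whose amount and activity were not measured. None of 24 DNA methylation enzymes and readers passed, with DNMT1 at 10.87, 10.88 and 10.56 without drugs and 11.06, 11.07 and 11.12 with them (0.31 ± 0.12, adjusted p = 0.199). DNMT3A (-0.13 ± 0.14), DNMT3B (0.29 ± 0.21) and UHRF1 (0.32 ± 0.23) did not pass either. None of 18 histone deacetylases passed, with HDAC1 at -0.34 ± 0.16, HDAC2 at -0.08 ± 0.11 and HDAC3 at -0.48 ± 0.28. With the replicate block HDAC3 was lower (adjusted p = 0.0221) and 1 methylation gene was lower. DCK, the kinase that activates 5-aza-dC, changed by -0.27 ± 0.31. At an unadjusted p below 0.05, limma called 4 of the 24 methylation genes and 2 of the 18 deacetylases.

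The falls that passed were fewer than the rises. MINAR2, a membrane protein, went from 8.86, 8.71 and 8.67 to 7.38, 6.87 and 6.65 (-1.78 ± 0.27, adjusted p = 0.000322). The tyrosine phosphatase PTPRR went from 9.87, 9.47 and 9.46 to 8.42, 8.30 and 7.98 (-1.37 ± 0.24, adjusted p = 0.00111). The adhesion receptor ADGRL2 went from 9.26, 9.17 and 9.81 to 8.27, 7.86 and 8.07 (-1.35 ± 0.20, adjusted p = 0.000305). These 3 genes were expressed in L428 and near the floor in Raji and Namalwa, where their means were between 3.76 and 5.21. The ephrin EFNA4 (-1.20 ± 0.21), the potassium channel subunit KCNMB2 (-1.15 ± 0.17), the thyroid hormone receptor THRB (-1.05 ± 0.22) and the glycogen branching enzyme GBE1 (-1.03 ± 0.18) also fell. The SLAM receptor CD244 fell by 1.12 (-1.12 ± 0.25), which did not pass once L428+M replicate 1 (-0.91) or 2 (-1.03) was removed. In none of the 36 lists did more than 1 member fall, and 3 of 359 solute carriers did, with 13 under the replicate block and 1 without L428+MAT replicate 3.

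The same drugs were also given to L428-PAX5, which expresses PAX5 and was grown with added HEPES, so PAX5, line and medium cannot be told apart there. Its treated arrays are titled L425-PAX5, but the cell line given for them is L428-PAX5, which was taken as correct. The 2 drug comparisons share no array. In L428-PAX5, 2622 genes rose (14.2%) and 3582 fell (19.4%), and the drug effect differed between the lines for 2990 genes (16.2%) by the interaction test. Of the 775 genes that rose in L428, 421 (54.3%) also rose in L428-PAX5, 68 fell there and 286 did not pass. The same 421 are 16.1% of the rises in L428-PAX5. Of the 117 falls, 74 (63.2%) also fell there. The interaction was lower in L428-PAX5 for 264 of the 775 and higher for 81, beside 1951 lower and 1039 higher among all genes. The 775 were chosen by their change in L428, which is subtracted in the interaction. A tilt to lower values is therefore partly built in.

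**Figure D4:**
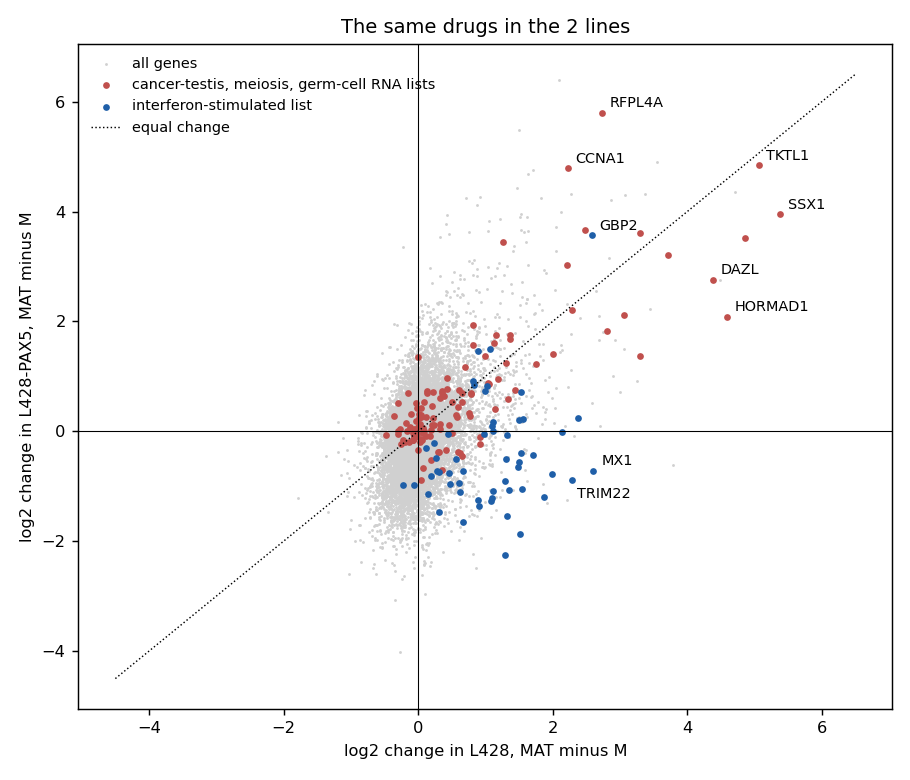
Each gene is placed by its log2 change with the drugs in L428 (horizontal) and in L428-PAX5 (vertical), with germline lists in red, the interferon-stimulated list in blue and equal change as a dotted line. All 39 germline genes that rose in L428 also lie above 0 in L428-PAX5, whereas the median of the interferon-stimulated list is 1.08 in L428 and -0.72 in L428-PAX5.

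The interferon response differed between the lines. Of the 55 interferon-stimulated genes, 37 rose and none fell in L428, whereas 8 rose and 29 fell in L428-PAX5, and the interaction was lower in L428-PAX5 for 41 and higher for 0. The median level of the list was 8.57 and 8.50 in the lines without drugs, 9.90 in L428+MAT and 8.14 in L428-PAX5+MAT. In L428-PAX5, MX1 was at 7.83, 7.71 and 7.79 without drugs and 7.30, 6.42 and 7.45 with them, so that it fell there (-0.72, adjusted p = 0.0119) and rose in L428 (difference -3.31, adjusted p = 2.73e-06). TRIM22 (difference -3.16) and OAS2 (difference -3.39) also fell there. GBP2 rose in both lines, by 2.58 and 3.57, and the difference did not pass (0.99, adjusted p = 0.147). CXCL11 likewise rose in both, by 3.38 and 4.33. CCL22 rose in L428 and changed by 0.09 in L428-PAX5 (difference -2.61, adjusted p = 3.12e-06). CR2, CD38 and FCER2 rose in L428, while in L428-PAX5 CD38 fell by 0.96 and the changes of CR2 (0.14) and FCER2 (-0.34) did not pass (differences -1.87, -2.82 and -1.94, all past the threshold).

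Germline genes rose in both lines with gene-by-gene differences. Of the 39 members of the 3 germline lists that rose in L428, 37 also rose in L428-PAX5 and none fell there. Cancer-testis genes had 15 rises in L428 and 20 in L428-PAX5, with a passing difference for 3 of 43, all lower in L428-PAX5. SSX1 rose by 5.38 in L428 and by 3.95 in L428-PAX5 (difference -1.43, adjusted p = 0.000925), and TKTL1 by 5.06 and 4.84 (difference -0.22, adjusted p = 0.716). HORMAD1 (4.59 and 2.08, difference -2.51) and DAZL (4.38 and 2.76, difference -1.62) rose further in L428. RFPL4A (2.74 and 5.80, difference 3.06) and CCNA1 (2.23 and 4.79, difference 2.55) rose further in L428-PAX5. The furthest apart was CYP1B1, which rose by 3.79 in L428 and did not pass in L428-PAX5 (-0.62, difference -4.41, adjusted p = 3.14e-05), where its mean was already 9.33 without drugs, against 6.78 in L428+M. In the other direction UTS2B, a urotensin gene, rose by 2.09 in L428 and by 6.40 in L428-PAX5 (difference 4.31, adjusted p = 1.08e-06).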

How the data were processed

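Gene expression was measured on 18 Affymetrix whole-transcript arrays in 6 groups of 3. The authors deposited 1 table of log2 signals from 2.24 to 14.6, and RMA and Partek are named in the submitters' processing notes. Of 33297 probe sets, 19460 had 1 gene symbol in GEO's platform annotation, 1754 had several and 12083 were unlisted. For the 769 genes with several probe sets the one brightest on average was kept, which left 18417 genes. Groups came from titles and the cell line field. The transposon and multi-symbol probe sets were not analysed here.

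A model with 1 mean per group was fitted to all 18 arrays with limma 3.58.1 (R 4.3.3, eBayes, 12 residual degrees of freedom and 6.08 prior), and p-values were Benjamini-Hochberg adjusted over all genes of a contrast. A gene passed at an adjusted p below 0.05. The contrasts were L428+MAT minus L428+M, the same in L428-PAX5, and their difference. The fits were tested on simulated data. The number of arrays limits the precision.

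Same-numbered replicates deviated together from their group means. In L428 r was between 0.49 and 0.65, against -0.52 to -0.13 for different numbers. In L428-PAX5 it was 0.31 to 0.42, against -0.37 to 0.09. The numbers were therefore taken to pair the samples in a further fit with the replicate number as a block. The main fit ignores this pairing, and counts, standard errors and adjusted p-values come from it unless another fit is named. The pairing comes from these correlations and the titles' numbers.

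Genes named were the 12 largest rises and the 12 largest falls among passing genes whose treated and control values did not overlap. A further condition for these was a mean over 7.18 in the brighter group. In each list or family the 4 largest passing rises and 3 largest passing falls were also named. A fixed set of drug targets, B-cell, Hodgkin and interferon genes was added, with the 8 largest line differences in each direction. Other genes are marked as named after their values were seen. The groups, members and lists were chosen with earlier results of these data known. Promoters were read from a RefSeq table for GRCh38.p14. Python 3.11.15, pandas 2.3.3, numpy 2.4.6 and matplotlib 3.10.9 were used. The alternatives were other scalings, array weights, a filter on dim genes, averaged probe sets, a trended variance, fewer groups in the fit, the block and each array left out.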

Additional observations from a re-analysis of the deposited data

Results flagged for a closer look

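For 48 of the genes named above, the drug effect passed in L428 and differed between the lines by limma's interaction test, and the values here are log2 differences, the change in L428-PAX5 minus that in L428. The largest group was made of interferon-stimulated, antigen-processing and chemokine genes with a lower change in L428-PAX5: IFI44L (-3.54), OAS2 (-3.39), MX1 (-3.31), TRIM22 (-3.16), PARP9 (-3.07), OAS1 (-2.78), CCL22 (-2.61), OAS3 (-2.15), IFI27 (-2.12), CXCL9 (-2.07), EIF2AK2 (-1.93), PSMB9 (-1.74), NLRC5 (-1.02) and IFIT1 (-0.81). Germline genes that rose further in L428 were HORMAD1 (-2.51), TEX11 (-1.93), GCNA (-1.73), DAZL (-1.62), SSX1 (-1.43) and SSX3 (-1.34), of which GCNA is in no list. The B-cell surface genes were CD38 (-2.82), FCER2 (-1.94), CR2 (-1.87) and CD52 (-1.13). Other genes with a lower change in L428-PAX5 were CYP1B1 (-4.41), CASP14 (-2.28), PCDHB5 (-1.89), LRRC49 (-1.22), AEN (-1.15), AIF1 (-1.15), the retroviral-derived ERVH48-1 (-1.06), PRRX1 (-0.96) and CDH1 (-0.93). GBE1 fell in both lines and fell further in L428-PAX5 (-1.56). The genes with a higher change in L428-PAX5 were UTS2B (4.31), RFPL4A (3.06), CCNA1 (2.55), ZNF486 (2.41), PLK2 (2.13), CCL20 (2.03), H4C8 (1.87), NNAT (1.85), OR2B6 (1.67), ZNF136 (1.40), TENM1 (1.37), ZNF737 (1.34), SLC34A2 (1.22) and INPP5F (0.80). Line, PAX5 and medium cannot be told apart in these differences. The genes also had to pass in L428, whose change is subtracted in the difference. For genes that rose in L428, this choice favours lower values.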

How the results depend on the processing

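No change or difference between lines of a named gene that passed in the main fit passed in the opposite direction under any alternative. Changes that did not pass are not covered by this, and small ones can change sign. Of the gene changes in L428 under the alternatives, 2583 stayed on their side of the threshold, 274 no longer passed and 15 newly passed. Of the 775 rises, all passed with the replicate block, 99.2% with the mean over probe sets, 98.7% with array weights and 67.9% with only the 2 groups in the fit, the lowest share. Array weights gave 1569 higher and 982 lower genes in L428, 4392 higher in L428-PAX5, and differences higher for 2682 and lower for 3283. With only the compared groups fitted, 38 genes fell in L428. The replicate block gave 436 falls in L428, and the differences were higher for 1717 and lower for 3013 genes. The cause of these shifts was not tested. Leaving out 1 array at a time gave 554 to 694 rises and 43 to 167 falls in L428, 2072 to 2778 rises and 2811 to 3573 falls in L428-PAX5, and 748 to 1510 higher and 1416 to 2446 lower differences. Of 1428 list counts, 257 moved by over 1.5 times, mostly lists with few calls. Other windows and fold limits for promoter CpG content were not run: 78.3% of the risen genes and 77.3% of all genes had a promoter window, below the 80% set, so the check is void. Each group held 3 arrays of 1 line, and dim genes lie near the floor of the arrays.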
